A study of Mus musculus with 24 samples.

Results

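Semaphorins, plexins, ephrins and Eph receptors are families of guidance ligands and receptors, and their messenger RNA levels were measured in mouse hindlimb muscle after ligation of the femoral artery. Gene symbols of the 5 classes Sema3 to Sema7, of the plexins (Plxna to Plxnd), of the plexin domain proteins Plxdc1 and Plxdc2, of the Eph receptors and of the ephrins were taken from the deposited expression table, with the transcript of the highest mean level kept for each symbol. This gave 53 of the 24016 gene symbols in the table. Of these, 35 were expressed, which here means at least 1 RPKM (reads scaled to exon length in kilobases and to M reads in the library) in at least 6 of the 24 libraries.

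All mice had a C57BL/6 background, and the femoral artery of 1 hindlimb was tied below the branching of its deep thigh branch, so that the adductor above stayed normoxic while the gastrocnemius of the calf became ischemic. Both muscles were collected on day 7 from control animals and from animals with type 2 diabetes (T2DM), and poly(A) RNA was sequenced from 6 samples in each of the 4 groups. How diabetes arose is not given in the sources used here, nor is it stated that samples of the same number share an animal, so the p-values speak of the spread among samples, which may be partly technical. No unligated muscle is among the samples, so muscle type and ischemia cannot be told apart in the comparison of gastrocnemius with adductor. In bulk tissue, fewer cells of a type and less RNA per cell cannot be told apart either.

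Semaphorins are ligands that are either secreted or held on the cell surface, and plexins are their receptors, with neuropilins as partners for most of the secreted ligands. Ephrins are surface ligands that signal on contact through Eph receptor tyrosine kinases, and the ligand-bearing cell can receive a signal in return. Both systems steer growing axons and vessels, and in muscle they act on endothelial cells, motor nerves, immune cells and muscle precursors.

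Library totals ran from 7.13 to 15.6 M reads. They split into 2 unlabelled sets by their Gapdh level. The first, of 14 (control samples 1 to 3 and diabetic samples 1 to 4 of both muscles), had 677 to 1757 RPKM of Gapdh, and the second, of 10, had 0.365 to 13.7 RPKM. Of the 35 expressed guidance genes, 32 had a higher mean in the first set. The median of all genes was also higher there, by 0.11 on the log2 scale. The 7 muscle fibre markers, led by Acta1 and Ckm, summed to between 31518 and 66733 RPKM in adductor and between 10740 and 41270 RPKM in gastrocnemius, so the labelled tissue was present in every library. RPKM divides a fixed total among all genes, and the median gene was 0.66 higher on the log2 scale in control gastrocnemius than in control adductor and 0.55 higher in the diabetic muscles. Each muscle difference of a guidance gene below is therefore followed by its value or call under median-of-ratios scaling (rescaling). That scaling sets the middle gene of each library level and moves those medians to -0.02 and -0.04. For the lists of partner and signal genes, counts after rescaling are given and not the value of each gene.

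By role, 4 of 7 secreted semaphorins were expressed, 10 of 13 membrane semaphorins, 6 of 9 plexins, both Plxdc genes, 2 of 9 EphA receptors, all 5 EphB receptors, 4 of 5 ephrin-A genes and 2 of 3 ephrin-B genes. The EphA family was the one with the fewest expressed members for its size. Of the 18 genes below the cut, Epha10 was listed at 0 in 22 of 24 libraries, and Epha5, Epha6 and Epha8 did not exceed 0.107 RPKM in any library. Efna5, Epha3, Plxna3, Plxnb1 and Sema3a missed the cut but passed a cut of 0.5 RPKM in at least 6 libraries. Epha3 reached 3.16 RPKM in 1 control gastrocnemius library and 3.18 RPKM in 1 diabetic gastrocnemius library.

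Promoter sequences are shown for the 2 genes that rose most between the muscles, Ephb3 and Plxnb2, and for Sema3c and Sema6c, the 2 that were called lower in both mouse groups once the median gene was set level. They are the 250 bases before the RefSeq start in build GRCm38.p6, read 5′ to 3′ on the strand of the gene. The Ephb3 window lies at chr16:21204545-21204794 on the plus strand, that of Plxnb2 at chr15:89180789-89181038 on the minus strand, that of Sema3c at chr5:17574566-17574815 on the plus strand and that of Sema6c at chr3:95164089-95164338 on the plus strand. Where RefSeq gave several starts, the window shown is the one nearest to the GENCODE start of the transcript measured. Relative to the RefSeq start, the GENCODE start lay at -40 bases for Ephb3, 0 for Plxnb2, -535 for Sema3c and 35 for Sema6c. The whole Sema3c window and the end of the Ephb3 window, with its ACGTG, thus lie downstream of the GENCODE start. Capitals mark ACGTG and GCGTG, the forms of the core bound by hypoxia-inducible factors, and TGACTCA, the AP-1 site, on either strand.
Ephb3: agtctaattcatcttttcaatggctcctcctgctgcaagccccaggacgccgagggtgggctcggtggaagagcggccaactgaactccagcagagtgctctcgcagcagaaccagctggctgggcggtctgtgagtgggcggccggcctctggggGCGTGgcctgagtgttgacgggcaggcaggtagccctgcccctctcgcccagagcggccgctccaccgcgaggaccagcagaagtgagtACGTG
Plxnb2: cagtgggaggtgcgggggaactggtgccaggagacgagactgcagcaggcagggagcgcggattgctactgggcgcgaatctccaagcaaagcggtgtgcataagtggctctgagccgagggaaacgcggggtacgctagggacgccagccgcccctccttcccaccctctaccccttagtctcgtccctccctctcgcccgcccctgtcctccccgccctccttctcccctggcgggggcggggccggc
Sema3c: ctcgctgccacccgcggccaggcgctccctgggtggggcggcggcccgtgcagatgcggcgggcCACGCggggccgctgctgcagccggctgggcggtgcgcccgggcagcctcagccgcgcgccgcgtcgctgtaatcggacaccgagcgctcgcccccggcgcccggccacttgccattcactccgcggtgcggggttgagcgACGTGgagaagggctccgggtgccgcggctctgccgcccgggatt
Sema6c: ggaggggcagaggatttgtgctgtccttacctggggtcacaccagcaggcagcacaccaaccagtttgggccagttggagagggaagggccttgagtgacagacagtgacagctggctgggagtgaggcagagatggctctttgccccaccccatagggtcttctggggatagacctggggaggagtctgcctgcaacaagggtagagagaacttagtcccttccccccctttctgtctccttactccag
The Ephb3 and Sema3c windows each held 1 ACGTG and 1 GCGTG, although the genes differed in opposite directions from the median gene. The Plxnb2 and Sema6c windows held none of the motifs. Each of these genes had a second RefSeq start, whose window held 1 GCGTG in Sema6c and none of the motifs in Plxnb2. RefSeq's table matched 45 of the 53 genes with 59 starts. Among those starts 18.6% held ACGTG, against 16.6% of all 32851 starts, 35.6% held GCGTG against 28.2%, and 3.39% held TGACTCA against 4.46%. Such a match describes the letters only.

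In control mice 29 of the 35 expressed genes differed between the muscles, against 63.1% of all genes tested, and in diabetic mice 27, against 56.9%. In control mice 28 were higher in ischemic gastrocnemius than in adductor at an adjusted p below 0.05 (limma, Benjamini-Hochberg over 12382 genes), against 54.4% of all genes, and 1 was lower, Sema6c, against 8.7%. In diabetic mice 27 were higher, against 48.1%, and 0 were lower, against 8.83%. All 27 were among the 28, and Efnb2 was the additional one in control mice. The members' median log2 difference was 1.40 in control and 1.24 in diabetic mice, against the medians of all genes given above. In the first set alone the members' medians were 1.33 and 1.36, and in the second set alone 1.21 and 0.88. Every gene called higher had a positive difference in each set, down to 0.37 in control and 0.21 in diabetic mice. The calls were made on these same libraries, so the signs are not an independent check.

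These counts depend on which genes could be tested. 12 of the 35 genes passed the expression cut only through gastrocnemius libraries (Efna2, Efna4, Epha2, Epha4, Ephb1, Ephb2, Ephb3, Ephb6, Plxna4, Plxnc1, Sema4b and Sema5a), so they had to be higher there. With the cut applied to adductor libraries alone, an alternative chosen after seeing the data, 23 members remained in the test. Of these 16 were higher in control mice, against 48.1% of all genes under that cut, and 1 lower, against 10.4%. In diabetic mice 15 were higher, against 40.9%. Without any cut, 37 of the 53 genes were higher in control mice (39.1% of all genes) and 1 lower (5.54%), and 34 were higher in diabetic mice (36.2%). Under median-of-ratios scaling 23 of the 35 were called in control mice (54.9% of all genes), 21 of them higher (28.4%) and 2 lower (26.5%). In diabetic mice 21 were called (53.7%), 19 higher (27.4%) and 2 lower (26.2%). Those 2 were Sema3c and Sema6c in both mouse groups.

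Groups of libraries did not overlap, with every gastrocnemius value above every adductor value, for 22 genes in control mice (33.3% of all genes) and 20 in diabetic mice (29% of all genes). For 17 genes this held in both mouse groups, against 24.5% of all genes. On the RPKM scale no guidance gene had its groups apart in the other direction, against 3% and 2.33% of all genes. After median-of-ratios scaling 9 genes in control mice (15.9% of all genes) and 14 in diabetic mice (16.5%) had every gastrocnemius value above every adductor value. On that scale Sema6c was apart in the other direction in control mice, as 1 of 35 genes (14.3% of all genes), and no guidance gene was in diabetic mice (12.6%). On both scales the counts with gastrocnemius above adductor include genes that passed the expression cut only through gastrocnemius libraries, such as Ephb3 and Plxnc1. Those genes had to be higher there.

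**Figure D1:**
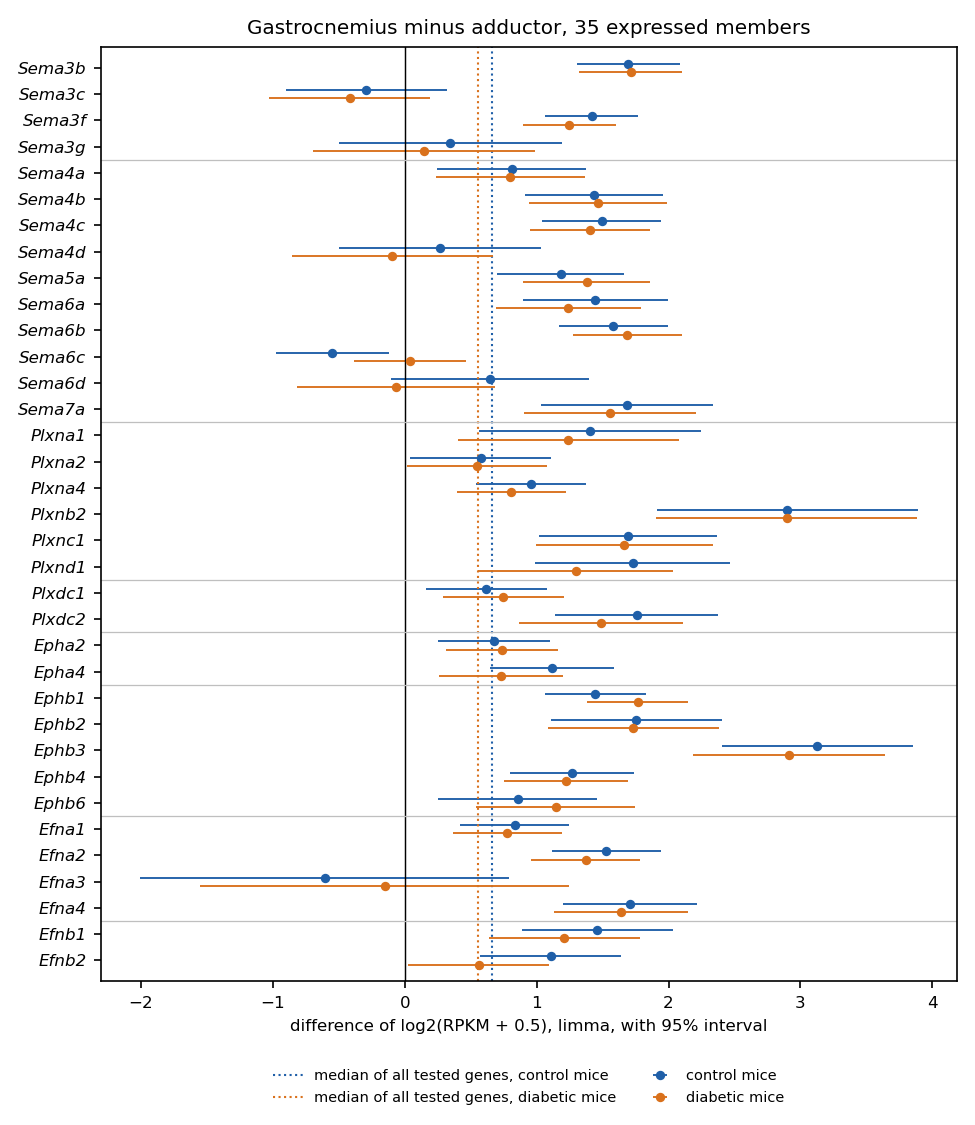
Log2 difference of gastrocnemius minus adductor for each expressed guidance gene, in control and in diabetic mice, with bars for the 95% confidence interval from limma and dotted lines at the median of all genes tested. Ephb3 and Plxnb2 lie farthest to the right, Sema6c lies left of 0 in control mice, and most intervals of the 2 mouse groups overlap.

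Among the secreted semaphorins, Sema3b and Sema3f rose in gastrocnemius while Sema3c, the most abundant of them in adductor, did not. Sema3b, a ligand for neuropilins with plexin A partners, ran from 1.07 to 3.56 RPKM (median 1.92) in control adductor and from 5.29 to 9.09 (median 7.57) in control gastrocnemius. Its diabetic groups ran from 1.31 to 2.21 (median 1.66) and from 5.33 to 8.45 (median 6.93), so the muscles did not overlap in either mouse group. Its log2 difference was 1.69 ± 0.19 (SE, adjusted p 1.2e-07) in control and 1.71 ± 0.19 (adjusted p 1.2e-07) in diabetic mice, and 1.003 and 1.13 after median-of-ratios scaling. The transcript kept for Sema3b is a noncoding RefSeq form of the gene.

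Sema3f, which acts mainly through neuropilin-2, ran from 1.31 to 2.25 RPKM (median 1.77) in control adductor and from 3.59 to 8.22 (median 4.97) in control gastrocnemius. In diabetic mice it ran from 1.49 to 2.17 (median 1.83) and from 3.80 to 6.28 (median 5.16). The muscles were again apart in both mouse groups, with log2 differences of 1.42 ± 0.17 (adjusted p 3.3e-07) and 1.25 ± 0.17 (adjusted p 2.1e-06), or 0.74 and 0.67 after rescaling.

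Sema3c, a ligand of heart outflow and vessel development, had 5.76 to 13.6 RPKM (median 10.3) in control adductor and 4.33 to 12.3 (median 7.76) in control gastrocnemius. Diabetic adductor had 4.56 to 13.6 (median 11.7) and diabetic gastrocnemius 3.30 to 13.1 (median 7.52). All 4 groups overlapped, and the log2 differences of -0.29 ± 0.30 (adjusted p 0.40) and -0.42 ± 0.30 (adjusted p 0.24) did not pass. After median-of-ratios scaling they were -1.04 and -1.05 with adjusted p 0.0045 and 0.0044, so Sema3c was lower relative to the middle gene in both mouse groups. With the replicate number as a block the diabetic difference also passed on the RPKM scale (adjusted p 0.033). Sema3g, another neuropilin-2 ligand, did not pass in either mouse group (0.35 ± 0.41 and 0.14 ± 0.41, or -0.34 and -0.45 after rescaling).

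The membrane semaphorins held the most abundant member, Sema6c, and it was the only gene called lower in gastrocnemius. Sema6c, whose class binds A-type plexins, ran from 22.3 to 39.0 RPKM (median 26.5) in control adductor and from 13.4 to 29.0 (median 18.0) in control gastrocnemius. In diabetic mice it ran from 14.1 to 31.1 (median 21.2) and from 17.1 to 31.7 (median 20.02). Control adductor held the highest median and the groups overlapped. The log2 difference was -0.55 ± 0.21 (adjusted p 0.024) in control and 0.04 ± 0.21 (adjusted p 0.89) in diabetic mice.

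Relative to the middle gene Sema6c was lower in both mouse groups, with -1.33 (adjusted p 0.00013) and -0.62 (adjusted p 0.045). On that scale its control muscles did not overlap, with 29.3 to 48.7 in adductor and 8.17 to 25.4 in gastrocnemius. The call in control mice was lost without control adductor 6, control gastrocnemius 1 or control gastrocnemius 2, with differences from -0.67 to -0.45 over the single left-out libraries. Its mean made up 54.7% of the summed membrane semaphorin level in control adductor and 25.4% in control gastrocnemius, while 7 of the other membrane semaphorins were called higher there.

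Sema7a, an anchored semaphorin that binds plexin C1 and beta-1 integrin, showed the largest rise of this group in control mice. It ran from 2.69 to 5.45 RPKM (median 4.11) in control adductor and from 7.85 to 26.6 (median 11.2) in control gastrocnemius, and from 2.40 to 4.67 (median 3.35) and 4.92 to 20.8 (median 11.6) in the diabetic muscles. On the RPKM scale the muscles did not overlap, but after rescaling they did in both mouse groups. The log2 differences were 1.68 ± 0.31 (adjusted p 7e-05) and 1.55 ± 0.31 (adjusted p 0.0002), or 0.94 and 0.93 after rescaling. In control mice the difference was 2.14 in the first set and 1.23 in the second, and in diabetic mice 2.07 and 0.52.

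Sema6b, like Sema6a a ligand of A-type plexins, had 0.742 to 1.95 RPKM (median 1.102) in control adductor and 2.90 to 6.55 (median 4.03) in control gastrocnemius. Its diabetic groups had 0.683 to 1.21 (median 1.12) and 3.25 to 6.12 (median 4.32). The log2 differences were 1.58 ± 0.20 (adjusted p 6.2e-07) and 1.69 ± 0.20 (adjusted p 3.4e-07), with 0.94 and 1.14 after rescaling. Sema6a ran from 0.715 to 2.69 RPKM (median 1.54) in control adductor and from 2.57 to 7.49 (median 4.77) in control gastrocnemius, where the groups met. In diabetic mice, with 1.13 to 2.26 (median 1.83) against 2.85 to 7.43 (median 4.36), they were apart, though not after rescaling. Its log2 differences were 1.45 ± 0.27 (adjusted p 5.7e-05) and 1.24 ± 0.27 (adjusted p 0.00036), or 0.78 and 0.66 after rescaling.

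Sema4b and Sema4c belong to the class that signals through B-type plexins, and Sema4c is a ligand of plexin B2. Sema4c ran from 1.35 to 2.16 RPKM (median 1.90) in control adductor and from 3.95 to 10.2 (median 5.56) in control gastrocnemius, and from 1.37 to 1.89 (median 1.68) and 3.21 to 7.34 (median 5.39) in the diabetic muscles. Its log2 differences were 1.49 ± 0.22 (adjusted p 3.8e-06) and 1.40 ± 0.22 (adjusted p 1e-05), or 0.80 and 0.83 after rescaling. Sema4b had 0.585 to 1.29 RPKM (median 0.711) against 1.48 to 5.29 (median 2.84) in control muscles and 0.574 to 1.11 (median 0.748) against 1.85 to 5.18 (median 2.93) in diabetic ones. On the RPKM scale both genes had the muscles apart in both mouse groups, and after rescaling Sema4b had them apart in diabetic mice alone. Sema4b differed by 1.44 ± 0.25 (adjusted p 3.6e-05) and 1.47 ± 0.25 (adjusted p 3.5e-05), or 0.84 and 0.96 after rescaling. Unlike Sema4c, it passed the expression cut only through gastrocnemius libraries, so it had to be higher there.

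Sema5a, a semaphorin with thrombospondin repeats, had 0.267 to 1.17 RPKM (median 0.6246) in control adductor and 1.52 to 2.75 (median 2.14) in control gastrocnemius, and 0.397 to 0.965 (median 0.604) and 1.36 to 3.89 (median 2.33) in the diabetic muscles. It differed by 1.18 ± 0.23 (adjusted p 0.00013) and 1.38 ± 0.23 (adjusted p 2.6e-05), or 0.64 and 0.90 after rescaling. Sema5a passed the expression cut only through gastrocnemius libraries, so it had to be higher there. Sema4a, which acts on T cells and endothelium, overlapped between muscles, with 1.04 to 2.96 RPKM (median 1.43) against 2.04 to 5.85 (median 2.94) in control mice and 1.02 to 1.81 (median 1.45) against 1.38 to 4.73 (median 3.11) in diabetic mice. Its differences of 0.81 ± 0.27 (adjusted p 0.013) and 0.80 ± 0.27 (adjusted p 0.015) fell to 0.15 and 0.26 after rescaling and no longer passed.

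Sema4d, a ligand of plexin B1, plexin B2 and Cd72, was the third most abundant member in both adductor groups and did not differ between muscles beyond its spread. It ran from 4.36 to 12.2 RPKM (median 8.42) in control adductor and from 4.48 to 16.6 (median 10.5) in control gastrocnemius, a log2 difference of 0.27 ± 0.37 (adjusted p 0.54). The diabetic difference was -0.09 ± 0.37 (adjusted p 0.85). After rescaling its differences were -0.49 (adjusted p 0.20) and -0.74 (adjusted p 0.054). Sema6d, a ligand of plexin A1, had 0.65 ± 0.36 (adjusted p 0.12) in control and -0.07 ± 0.36 (adjusted p 0.89) in diabetic mice, or -0.03 (adjusted p 0.95) and -0.66 (adjusted p 0.084) after rescaling. On the RPKM scale the control difference of Sema6d passed with the replicate block (adjusted p 0.012).

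**Figure D2:**
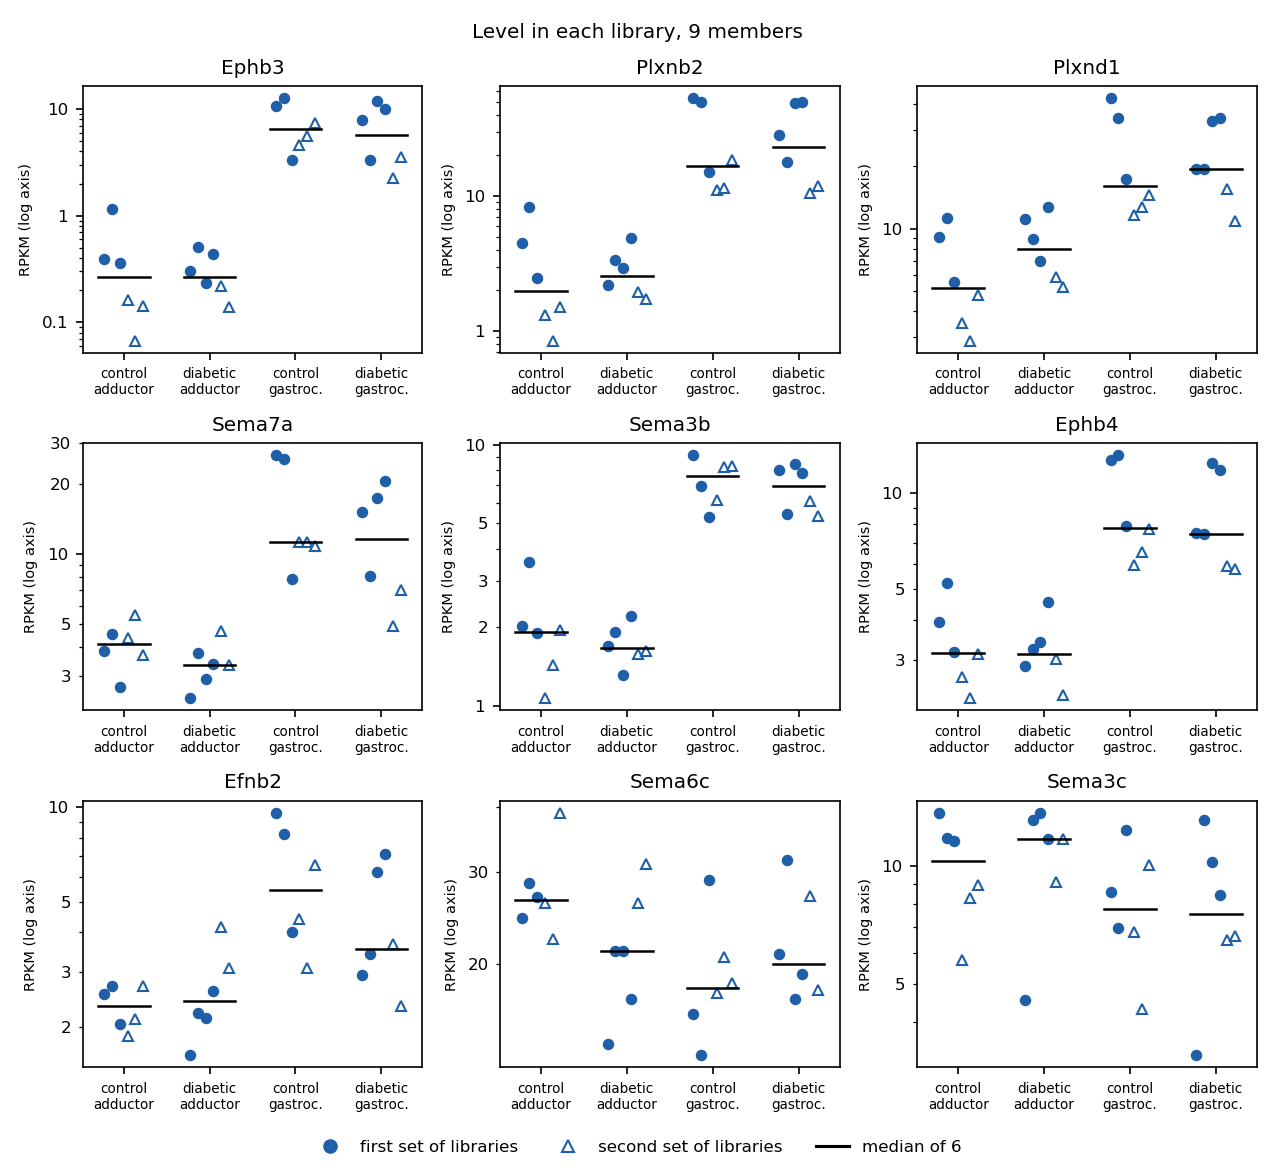
RPKM on a log axis in each of the 24 libraries for 9 guidance genes, by group, with circles for the first set, triangles for the second set and a line at the median of 6 libraries. Ephb3 and Plxnb2 have every gastrocnemius library above every adductor library, while Sema6c and Sema3c overlap in all groups.

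Among the plexins, Plxnb2, the receptor for class 4 semaphorins, rose most and had the highest mean level of the guidance genes in gastrocnemius. It ran from 0.851 to 8.23 RPKM (median 2.00) in control adductor and from 11.1 to 53.02 (median 16.8) in control gastrocnemius. In diabetic mice it ran from 1.73 to 4.89 (median 2.57) and from 10.6 to 49.9 (median 23.0). The muscles were apart in both mouse groups on the RPKM scale, and after rescaling in diabetic mice alone. The log2 difference was 2.90 ± 0.48 in each mouse group, with adjusted p 1.6e-05 and 2.1e-05. After rescaling it was 2.19 and 2.27, and in the second set alone 3.03 and 2.32. Its mean of 26.4 RPKM in control gastrocnemius rested on libraries 1 and 2, at 53.02 and 49.2 RPKM, and by the median Sema6c was higher there. In diabetic gastrocnemius Plxnb2 was the first of 53 by mean and by median. Its libraries overlapped in both groups with those of Plxnd1 and Sema6c.

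Plxnd1, the plexin of endothelial cells that guides vessel sprouting, ran from 2.88 to 11.3 RPKM (median 5.17) in control adductor and from 11.6 to 42.8 (median 16.0) in control gastrocnemius. In diabetic mice the muscles overlapped, with 5.22 to 12.8 (median 7.96) and 10.9 to 34.4 (median 19.5). Its log2 differences were 1.73 ± 0.36 (adjusted p 0.00021) and 1.30 ± 0.36 (adjusted p 0.0035). After rescaling the control difference of 0.97 passed (adjusted p 0.0096) and the diabetic difference of 0.64 did not (adjusted p 0.08).

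Plxnc1, the receptor of Sema7a, had 0.0683 to 0.715 RPKM (median 0.186) against 1.005 to 4.30 (median 1.48) in control muscles and 0.0996 to 0.487 (median 0.266) against 0.961 to 4.59 (median 1.54) in diabetic muscles. It differed by 1.69 ± 0.33 (adjusted p 9.8e-05) and 1.67 ± 0.33 (adjusted p 0.00014), or 1.25 in each after rescaling. Plxnc1 passed the expression cut only through gastrocnemius libraries, so it had to be higher there. Plxna1, a receptor shared by secreted and membrane semaphorins, overlapped between muscles, with 1.42 to 6.05 RPKM (median 2.56) against 4.06 to 18.1 (median 7.18) in control and 2.35 to 4.32 (median 3.18) against 3.11 to 19.1 (median 7.99) in diabetic mice. It differed by 1.40 ± 0.41 (adjusted p 0.0044) and 1.24 ± 0.41 (adjusted p 0.012), and not after rescaling (0.69 with adjusted p 0.091 and 0.62 with adjusted p 0.13). Of the 31-base words of Plxna1, 8.57% also occur in another annotated gene.

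Plxna4, which pairs with neuropilin-1, ran from 0.192 to 0.811 RPKM (median 0.520) in control adductor and from 0.953 to 1.94 (median 1.42) in control gastrocnemius, and from 0.349 to 0.788 (median 0.660) and 0.832 to 1.93 (median 1.47) in the diabetic muscles. It was called higher by 0.96 in control and 0.81 in diabetic mice, and after rescaling in control mice alone (0.47, adjusted p 0.037, against 0.37, adjusted p 0.1). The muscles were apart in both mouse groups on the RPKM scale and overlapped in both after rescaling. Plxna4 passed the expression cut only through gastrocnemius libraries, so it had to be higher there. An antisense gene, Plxna4os1, overlaps it, and the counting shows no strand option, so their reads cannot be told apart. Plxna2 did not pass (0.58 ± 0.26 with adjusted p 0.055 and 0.55 ± 0.26 with adjusted p 0.074), and its rescaled differences were -0.05 and 0.00046. On the RPKM scale it did pass with the replicate block, at adjusted p 0.0011 and 0.0018.

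The plexin domain proteins are surface proteins first known from tumour vessels. Plxdc2 ran from 1.16 to 3.78 RPKM (median 2.16) in control adductor and from 4.89 to 11.4 (median 9.61) in control gastrocnemius, and from 1.55 to 3.69 (median 2.26) and 3.40 to 12.1 (median 7.98) in the diabetic muscles. Its differences were 1.76 ± 0.30 (adjusted p 2.3e-05) and 1.49 ± 0.30 (adjusted p 0.00019), or 1.06 and 0.88 after rescaling. Plxdc1 had 0.634 to 2.03 RPKM (median 1.54) against 1.47 to 3.53 (median 2.34) in control mice and 0.879 to 2.26 (median 1.23) against 1.80 to 3.14 (median 2.58) in diabetic mice, with overlap in both. It was called higher by 0.62 and 0.75, but after rescaling its differences were 0.00 and 0.22 and did not pass. The control call was lost without control adductor 4 or control gastrocnemius 1.

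Only Epha2 and Epha4 of the EphA receptors passed the expression cut, and both did so through gastrocnemius libraries. Epha2, a receptor of ephrin-A1 on vessels and epithelia, had 0.568 to 0.889 RPKM (median 0.751) in control adductor and 1.02 to 2.69 (median 1.17) in control gastrocnemius, and 0.476 to 1.18 (median 0.764) and 1.14 to 2.88 (median 1.40) in the diabetic muscles. Epha4, which binds ephrins of both classes, had 0.118 to 0.729 RPKM (median 0.383) against 0.801 to 2.45 (median 1.38) in control and 0.283 to 0.715 (median 0.469) against 0.687 to 2.21 (median 0.908) in diabetic mice. On the RPKM scale the diabetic muscles overlapped in each gene and the control muscles did not, while after rescaling both overlapped. Epha2 was called higher by 0.68 and 0.74 and Epha4 by 1.11 and 0.73. After rescaling Epha4 in control mice passed (0.64, adjusted p 0.0042) and the other 3 did not.

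All 5 EphB receptors were called higher in gastrocnemius in both mouse groups, against 54.4% and 48.1% of all genes, and Ephb3 had the largest difference of any guidance gene. Ephb1, Ephb2, Ephb3 and Ephb6 passed the expression cut only through gastrocnemius libraries and so had to be higher there, which leaves Ephb4 as the one EphB receptor that could have differed either way. Ephb3, a receptor of B-type ephrins, had 0.0673 to 1.15 RPKM (median 0.263) in control adductor and 3.32 to 12.7 (median 6.46) in control gastrocnemius. Diabetic adductor had 0.140 to 0.510 (median 0.268) and diabetic gastrocnemius 2.25 to 11.9 (median 5.73). The lowest adductor library held 3 reads of it and the lowest gastrocnemius library 73. The log2 difference was 3.13 ± 0.35 (adjusted p 1.3e-07) in control and 2.91 ± 0.35 (adjusted p 4e-07) in diabetic mice, or 2.60 and 2.46 after rescaling. Added to a pseudocount of 0.5 RPKM, such low adductor values make these an understatement of the ratio of the levels.

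Ephb4, the receptor that marks venous endothelium and pairs with ephrin-B2, had the highest mean level of the Eph receptors in every group. It ran from 2.28 to 5.23 RPKM (median 3.15) in control adductor and from 5.97 to 13.1 (median 7.801) in control gastrocnemius, and from 2.33 to 4.56 (median 3.13) and 5.76 to 12.5 (median 7.47) in the diabetic muscles. The muscles were apart on the RPKM scale and overlapped in both mouse groups after rescaling. Ephb4 differed by 1.27 ± 0.23 (adjusted p 4.5e-05) and 1.22 ± 0.23 (adjusted p 8e-05), or 0.54 and 0.61 after rescaling. Its share of the summed EphB level went from 70.4% to 41.2% in control mice and from 74.6% to 41.4% in diabetic mice, while Ephb1, Ephb2 and Ephb3 had larger log2 differences.

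Ephb2, a receptor of midline axons and of cell sorting, had 0.0767 to 0.778 RPKM (median 0.162) against 0.807 to 4.31 (median 2.06) in control muscles and 0.113 to 0.290 (median 0.214) against 0.869 to 3.40 (median 1.61) in diabetic ones. It differed by 1.76 ± 0.31 (adjusted p 4.1e-05) and 1.73 ± 0.31 (adjusted p 5.8e-05), or 1.32 and 1.35 after rescaling. Ephb1, close to Ephb2 in its ligands, ran from 0.174 to 0.692 RPKM (median 0.362) to 1.26 to 2.73 (median 1.89) in control mice, and from 0.0766 to 0.326 (median 0.254) to 1.15 to 3.11 (median 1.90) in diabetic mice. Its differences were 1.45 and 1.77, or 0.95 and 1.38 after rescaling. Ephb6, a receptor without kinase activity, had 0.124 to 0.800 RPKM (median 0.315) against 0.340 to 2.85 (median 0.880) in control muscles, which overlapped, and 0.120 to 0.525 (median 0.414) against 0.858 to 2.11 (median 1.49) in diabetic muscles, which did not. It was called higher by 0.86 and 1.15, and after rescaling in diabetic mice alone (0.74, adjusted p 0.014, against 0.42, adjusted p 0.16, in control mice).

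Efna1, Efna3 and Efna4 lie side by side on chromosome 3 in build mm9, Efna1 at 89075652 to 89083567, Efna3 at 89118873 to 89126801 and Efna4 at 89137315 to 89141950, all on the minus strand, and their levels did not move alike. Efna1, a ligand of EphA2 on endothelium, ran from 3.40 to 7.14 RPKM (median 4.69) in control adductor and from 5.75 to 13.6 (median 8.97) in control gastrocnemius, and from 3.69 to 5.47 (median 3.98) and 5.56 to 10.1 (median 8.20) in the diabetic muscles. It was called higher by 0.83 ± 0.20 (adjusted p 0.00091) and 0.78 ± 0.20 (adjusted p 0.002), but these were 0.09 and 0.16 after rescaling and did not pass.

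Efna4 was near 0 in adductor, at 0 to 0.263 RPKM (median 0.0713) in control and 0 to 0.183 (median 0.0221) in diabetic mice. In gastrocnemius it had 0.279 to 2.86 (median 1.77) and 0.646 to 1.52 (median 1.31). The muscles were apart in both mouse groups on the RPKM scale, and after rescaling in diabetic mice alone. Efna4 was called higher by 1.71 and 1.64, or 1.36 and 1.37 after rescaling. An adductor library held at most 6 reads of it, so the fold rests on the pseudocount. The lowest control gastrocnemius library also held 6 reads, so in control mice the muscles were barely apart. Efna2, another ligand of EphA receptors, had 0.0464 to 0.459 RPKM (median 0.179) against 0.835 to 2.19 (median 1.53) in control and 0.132 to 0.327 (median 0.215) against 0.725 to 2.00 (median 1.36) in diabetic mice, and was called higher by 1.53 and 1.37, or 1.12 and 1.02 after rescaling. Both Efna2 and Efna4 passed the expression cut only through gastrocnemius libraries, so they had to be higher there.

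Efna3 separated the sets of libraries. It was listed at 0 in 9 of the 10 libraries of the second set, with 0.0786 RPKM in the remaining one, and ran from 0.545 to 5.48 RPKM (median 1.48) in the 14 libraries of the first set. Its muscle differences were -0.61 ± 0.68 (adjusted p 0.45) in control and -0.15 ± 0.68 (adjusted p 0.87) in diabetic mice, or -0.95 and -0.55 after rescaling, and neither passed on either scale. With the replicate block the control difference on the RPKM scale passed as lower (adjusted p 0.036). Of its 31-base words 10.5% occur in another annotated gene, and 8.80% of those of Efna4, and how reads with several matches were counted is not given in the sources used here.

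Of the B-type ephrins, which span the membrane and can signal back into their own cell, Efnb1 rose in both mouse groups. It ran from 1.74 to 3.25 RPKM (median 2.41) in control adductor and from 4.32 to 13.9 (median 6.97) in control gastrocnemius, and from 2.31 to 3.49 (median 2.58) and 3.93 to 11.0 (median 7.76) in the diabetic muscles. The muscles were apart on the RPKM scale and overlapped in both mouse groups after rescaling. Efnb1 differed by 1.46 ± 0.28 (adjusted p 8e-05) and 1.21 ± 0.28 (adjusted p 0.00067), or 0.75 and 0.60 after rescaling.

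Efnb2, the arterial partner of Ephb4, had 1.87 to 2.70 RPKM (median 2.32) in control adductor and 3.09 to 9.60 (median 5.46) in control gastrocnemius, without overlap. In diabetic mice it had 1.62 to 4.17 (median 2.41) and 2.34 to 7.10 (median 3.54), with overlap. Its difference was 1.11 ± 0.26 (adjusted p 0.00073) in control mice and 0.56 ± 0.26 (adjusted p 0.069) in diabetic mice, and the latter passed with the replicate block (adjusted p 0.035). After rescaling neither passed (0.40 with adjusted p 0.08 and -0.03 with adjusted p 0.92), and the muscles overlapped in both mouse groups. The control and diabetic differences were not shown to differ, as the test given for the diabetes effects below reports.

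**Figure D3:**
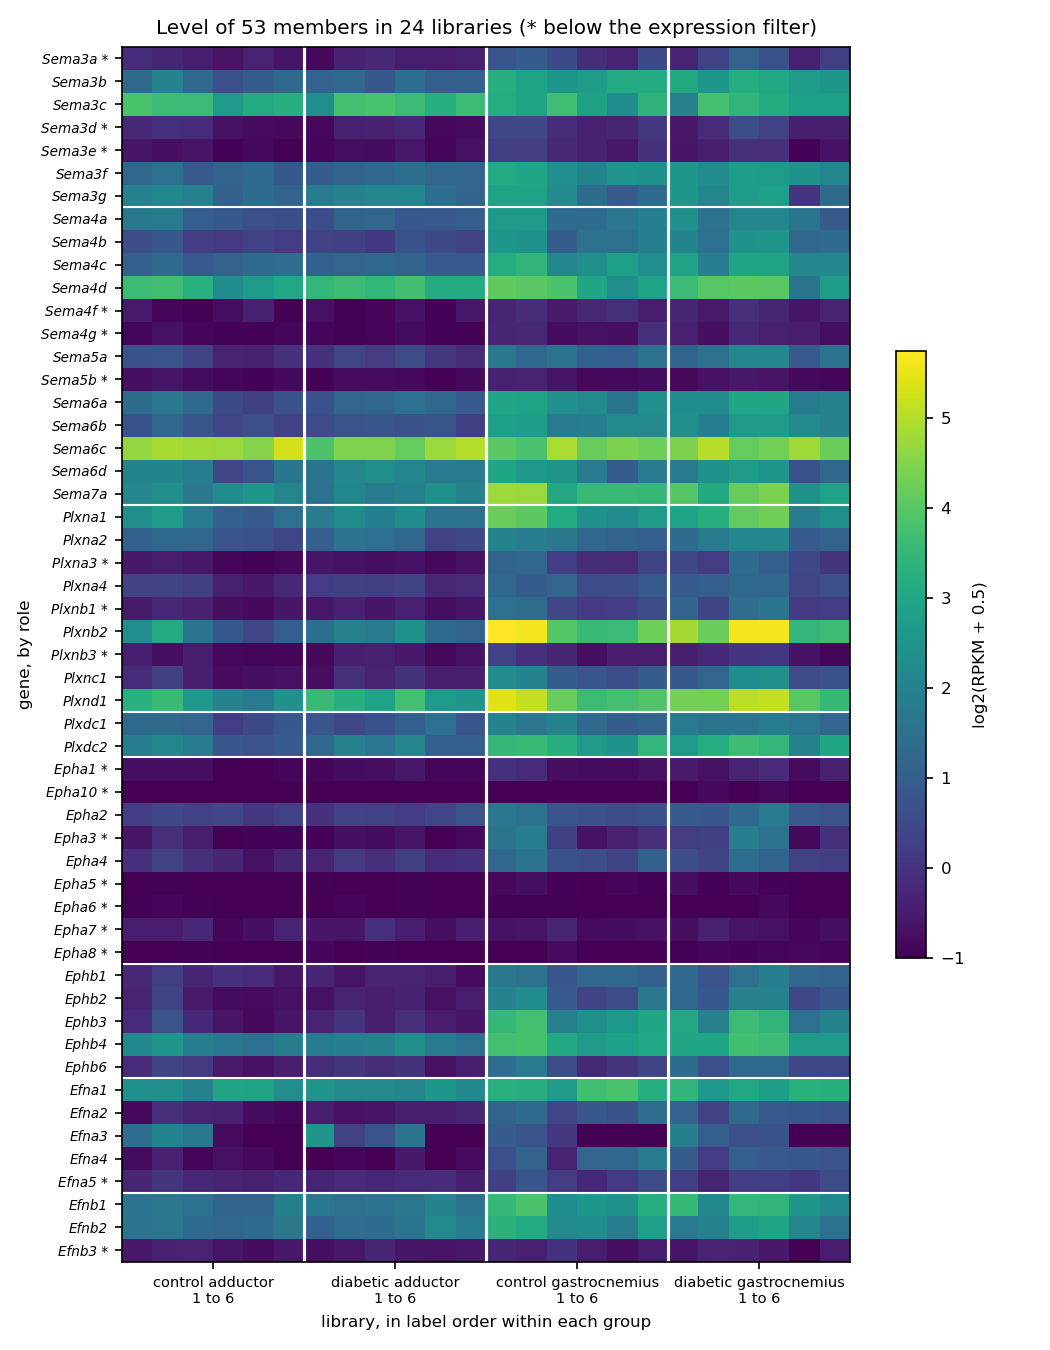
Level of all 53 guidance genes, ordered by role, in the 24 libraries grouped by muscle and mouse group, with color for log2(RPKM + 0.5) and a star for genes below the expression cut. Sema6c is high in every library, the EphB rows are lighter in the gastrocnemius columns, and most EphA rows stay dark throughout.

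Of the 18 genes below the expression cut, 5 could be tested with a cut of 0.5 RPKM. All 5 passed that cut only through gastrocnemius libraries, since at most 1 adductor library of any of them held 0.5 RPKM, so they had to be higher there. They were called higher in both mouse groups, against 54.4% and 48.5% of all genes at that cut, with 8.38% of all genes lower in each. Plxnb1, a receptor of Sema4d, differed by 1.25 and 1.35, Plxna3 by 1.16 and 1.29, Epha3 by 1.11 and 1.32, Sema3a, the prototype axon repellent, by 0.79 and 0.75, and Efna5 by 0.55 and 0.41. After rescaling, an alternative added after seeing the data, Plxnb1 (0.86 and 1.001) and Plxna3 (0.82 and 0.99) stayed called in both mouse groups and Epha3 in diabetic mice alone (0.78 and 1.03), while Sema3a (0.41 and 0.43) and Efna5 (0.15 and 0.09) did not.

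Partner and signal genes outside the families were read from lists, whose counts stand against 54.4% of all genes higher and 8.7% lower in control mice and 48.1% and 8.83% in diabetic mice. After rescaling the shares of all genes were 28.4% and 26.5% in control and 27.4% and 26.2% in diabetic mice. Of 9 tested co-receptors and other semaphorin receptors, 6 were higher in gastrocnemius in each mouse group and 0 lower, and after rescaling 6 in control and 5 in diabetic mice were higher and 0 lower. Ptk7 differed by 3.33 ± 0.39 in control mice, Erbb2 by 2.27 ± 0.31, Itgb1 by 1.70 ± 0.21 and Nrp1, the partner of plexins for secreted semaphorins, by 1.53 ± 0.20, all higher also after rescaling. Nrp1 ran from 13.4 to 22.2 RPKM (median 15.3) in control adductor and from 33.8 to 61.0 (median 47.8) in control gastrocnemius. Kdr, a receptor of vascular endothelial growth factor, did not pass (0.20 ± 0.42, adjusted p 0.70).

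Of 20 tested proteins that carry semaphorin signals, 14 were higher and 1 lower in each mouse group. Dpysl3 differed by 3.35 ± 0.34 and Dpysl2 by 1.83 ± 0.20, which are collapsin response mediators that act on the cytoskeleton. The kinase Fyn differed by 2.02 ± 0.25 and the adaptor Gipc1 by 1.40 ± 0.17. Mical2, a monooxygenase that takes actin filaments apart, was the one that was lower, by -1.90 ± 0.57 in control and -2.41 ± 0.57 in diabetic mice. After rescaling 12 were higher and 1 lower in control mice, and 11 and 4 in diabetic mice.

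Of 23 tested proteins of Eph and ephrin signaling, 16 were higher in control and 12 in diabetic mice, and 0 were lower. The protease Mmp14 differed by 3.88 ± 0.33, the adaptor Sdcbp by 2.13 ± 0.28, the exchange factor Vav3 by 1.73 ± 0.21 and the Rac regulator Chn2 by 1.35 ± 0.18 in control mice. After rescaling 8 were higher and 3 lower in control, and 9 and 4 in diabetic mice. Among 12 tested genes of the Slit, Robo, netrin and related families, 8 were higher in control mice, and 6 were higher and 1 lower in diabetic mice, or 4 and 2 in each after rescaling. Unc5b, a netrin receptor of endothelial tip cells, differed by 2.22 ± 0.35 and Robo1 by 1.63 ± 0.31.

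Markers of other cell types moved with the same muscle comparison. All 6 macrophage markers were higher in gastrocnemius in both mouse groups, and their sum ran from 23.6 to 214 RPKM in control adductor, 337 to 1342 in control gastrocnemius, 40.5 to 86.2 in diabetic adductor and 265 to 1123 in diabetic gastrocnemius. All 5 satellite cell and myoblast markers were higher, with sums of 11.8 to 29.4 and 70.9 to 367 RPKM in control and 13.6 to 32.7 and 87.8 to 276 RPKM in diabetic muscles. All 6 fibroblast markers were higher as well, from 193 to 892 and 1350 to 5139 RPKM in control and from 233 to 435 and 1020 to 4285 RPKM in diabetic muscles. After rescaling all macrophage and all satellite cell and myoblast markers stayed higher in both mouse groups, and of the 6 fibroblast markers 5 in control and 3 in diabetic mice. The largest adductor sums of macrophage and fibroblast markers lay in control mice, both in library 2. By the median the order was reversed. Macrophage sums had medians of 37.7 RPKM in control and 64.9 in diabetic adductor, and fibroblast sums 258 and 293.

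Of 7 endothelial markers 5 were higher in each mouse group, with sums of 61.7 to 84.5 and 111 to 183 RPKM in control and 51.7 to 93.4 and 106 to 146 RPKM in diabetic muscles. After rescaling 1 of the 7 was higher in control and 0 in diabetic mice. The 4 tested markers of dividing cells were all higher, with list sums of 0.366 to 3.57 and 10.1 to 70.0 RPKM in control muscles. Of 7 muscle fibre markers 4 were lower in control and 3 in diabetic mice. The other lists gave the same counts in both mouse groups. Of 7 smooth muscle and pericyte markers 4 were higher and 2 lower, of 4 lymphatic markers 2 were higher, of 4 tested Schwann markers 2, of 3 tested neutrophil markers 0, of 4 adipocyte markers 0, and the 1 tested T and B cell marker was higher. After rescaling no Schwann marker was higher, and 1 was lower in control mice. In each mouse group 3 smooth muscle and pericyte markers were then higher and 2 lower. Of the lymphatic markers 1 was higher and 1 lower in each, and 1 adipocyte marker was lower in each. Of the muscle fibre markers 5 were lower in control and 4 in diabetic mice. All marker counts stand against the same shares of all genes as those of the partner and signal genes. No marker of these lists was listed at 0 throughout a group. The part of these cell types in the differences of the guidance genes was not tested.

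Within a group, single libraries were often the highest for many guidance genes. In control gastrocnemius, libraries 1 and 2 were the highest of the 6 for 21 and 9 of the 35 guidance genes. They had the largest macrophage sums, 1342 and 1235 RPKM, and the smallest muscle fibre sums, 13395 and 10740 RPKM. In diabetic gastrocnemius, libraries 3 and 4 were the highest for 14 genes each, with macrophage sums of 1089 and 1123 RPKM and muscle fibre sums of 15254 and 14022 RPKM. In control adductor, library 2 was the highest for 27 of the 35 genes and had the largest macrophage sum of its group, 214 RPKM, while its muscle fibre sum of 41732 RPKM was not the smallest, which was 38087 RPKM in library 3. In diabetic adductor, library 4 was the highest for 16 genes, with the smallest muscle fibre sum, 31518 RPKM, but the largest macrophage sum lay in library 2, at 86.2 against 80.0 RPKM, which was the highest for 4 genes. These libraries all belong to the first set. How often they were the highest over all genes was not counted, so these counts cannot be called particular to guidance genes. The largest factors of median-of-ratios scaling, which follow the middle gene of a library, were 1.61 and 1.64 in control gastrocnemius 1 and 2. In diabetic gastrocnemius they were 1.58 and 1.56 in libraries 3 and 4, and in control adductor 0.889 in library 2. In diabetic adductor the largest was 0.848 in library 5, against 0.791 in library 4.

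**Figure D4:**
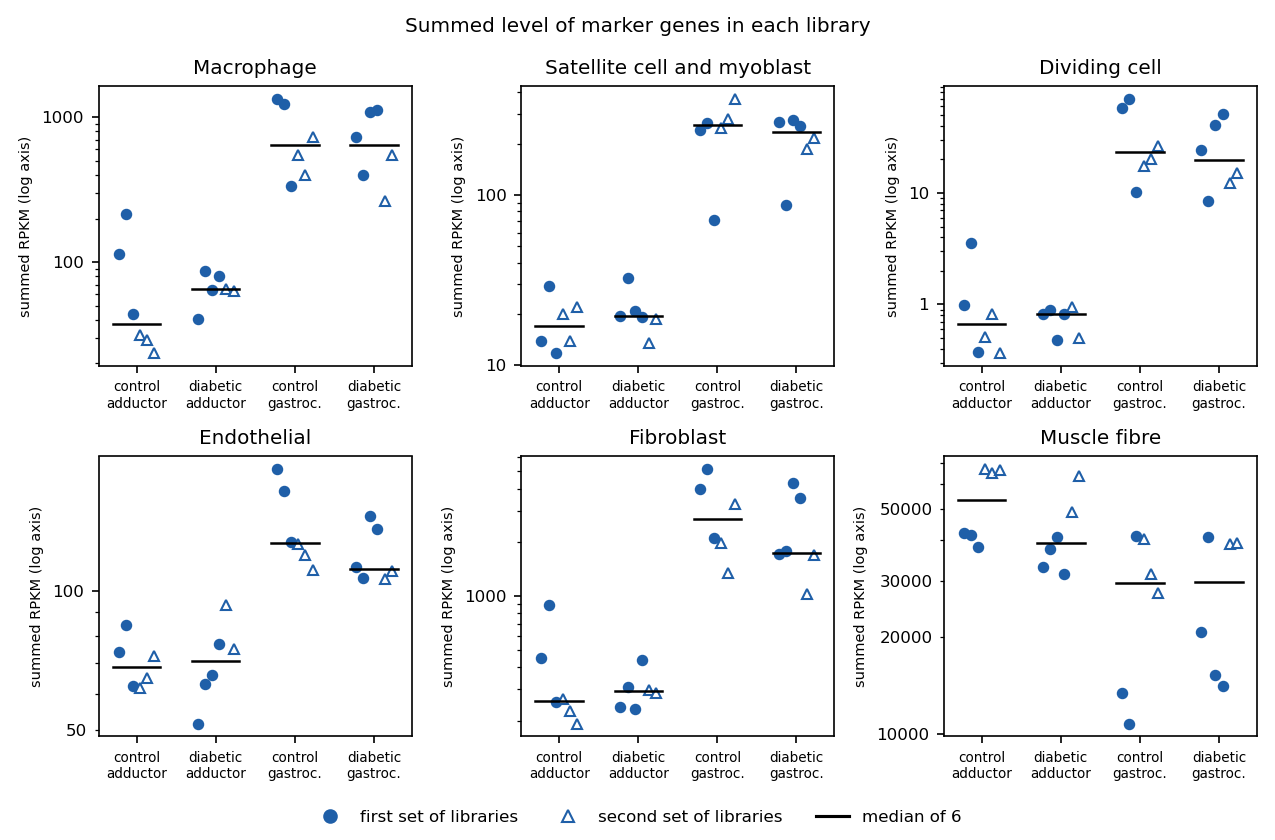
Summed RPKM of 6 marker lists in each library on log axes, by group, with circles for the first set and triangles for the second. Macrophage, fibroblast and myoblast sums are higher in all gastrocnemius libraries than in any adductor library, and muscle fibre sums of the muscles overlap.

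No guidance gene passed the test for an effect of diabetes. Between diabetic and control adductor 0 of the 35 genes passed (limma, against 0.0323% of all genes, 4 genes), and between diabetic and control gastrocnemius 0 passed (0.00808% of all genes, 1 gene). In neither comparison did a guidance gene reach an unadjusted p below 0.05, and voom on rebuilt reads also called 0. The difference of the 2 diabetes effects, gastrocnemius minus adductor, was called for 0 guidance genes and 0% of all genes.

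In adductor the 3 smallest p-values belonged to Sema6c, at -0.37 ± 0.21 (95% interval -0.80 to 0.06), Ephb1, at -0.30 ± 0.19 (-0.68 to 0.09), and Plxnd1, at 0.50 ± 0.36 (-0.24 to 1.24). Each had an adjusted p of 1 in limma. Within the library sets Sema6c was -0.54 in the first and 0.01 in the second, Ephb1 -0.31 and -0.36, and Plxnd1 0.21 and 0.53. The diabetic and control ranges of these 3 genes overlapped, as the values above show.

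In gastrocnemius they belonged to Efnb2, at -0.43 ± 0.26 (95% interval -0.97 to 0.10), Efna1, at -0.26 ± 0.20 (-0.67 to 0.16), and Sema7a, at -0.36 ± 0.31 (-1.01 to 0.29), each with an adjusted p of 0.999. Within the first and second set Efnb2 was -0.52 and -0.53, Efna1 -0.10 and -0.31, and Sema7a -0.27 and -0.87. All 3 had a negative sign in each set without passing.

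For the difference of effects the smallest unadjusted p was 0.056, for Sema6c at 0.59 ± 0.29 (95% interval -0.02 to 1.19), which was 0.77 in the first set and 0.21 in the second. Efnb2 had -0.55 ± 0.37 (-1.30 to 0.21) and Sema6d -0.71 ± 0.51 (-1.77 to 0.35). With an adjusted p of 0.9998 for each, the higher Sema6c of control adductor and the rise of Efnb2 in control mice were not shown to differ from diabetic mice.

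Across the 35 genes the intervals of the diabetes effect reached from -1.27 to 1.53 in adductor and from -1.01 to 1.99 in gastrocnemius, and the median interval reached 0.53 to either side of its estimate. For the difference of effects they reached from -1.77 to 2.43, with 0.76 to either side. No gene of the 4 lists of partner and signal genes was called in any of these comparisons.

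**Figure D5:**
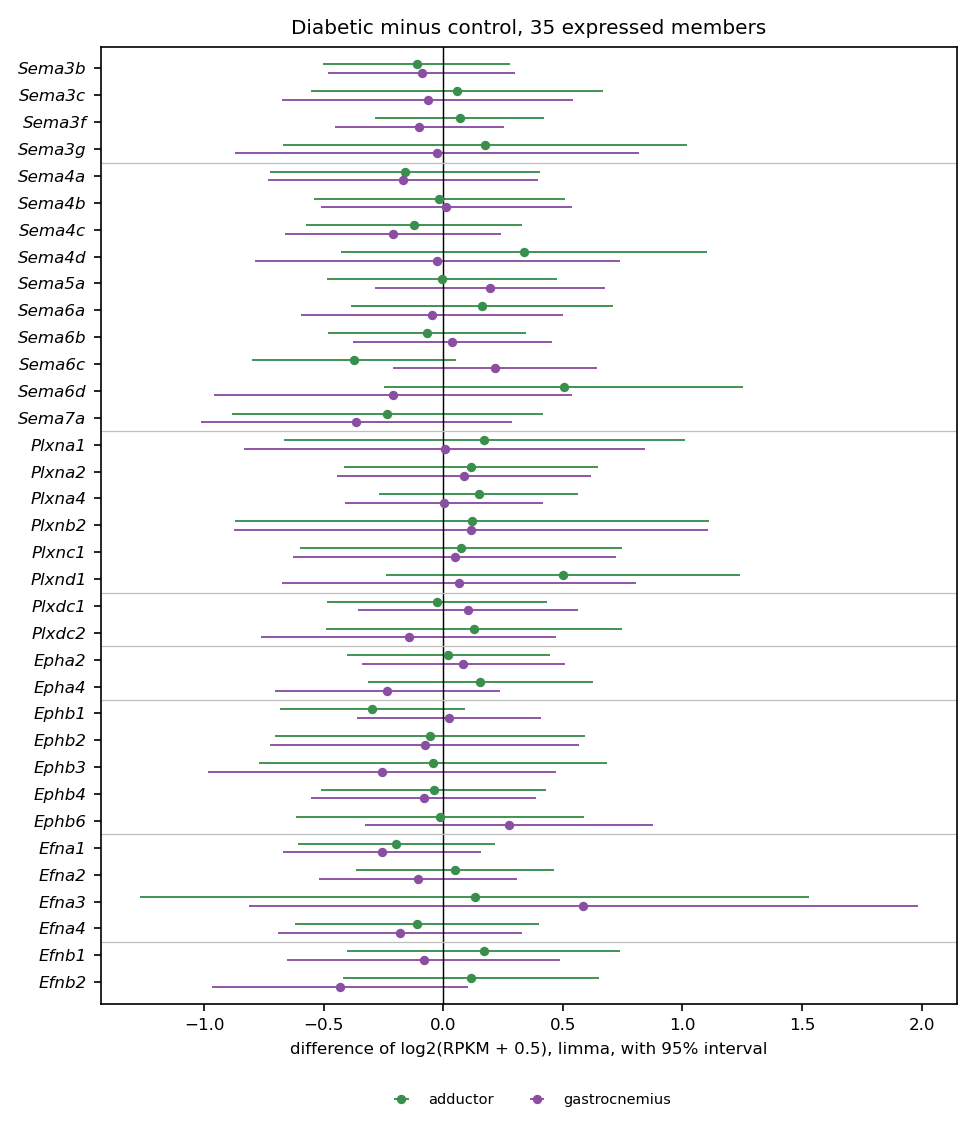
Log2 difference of diabetic minus control for each expressed guidance gene, in adductor and in gastrocnemius, with bars for the 95% confidence interval from limma. Every interval includes 0, and the widest belongs to Efna3.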

How the data were processed

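Poly(A) RNA libraries of 24 muscle samples were analysed. The deposited table gave RPKM per RefSeq transcript of mouse build mm9, computed by the authors with HOMER over exons with no strand option, per the file headers, and the deposited length column gave the exon length in bases used to rebuild reads. The submitters' processing notes list TopHat, HOMER and build mm9 and give no versions or settings. Reads rebuilt from RPKM, length and library total were whole (tolerance 0.01) in 99.97% of nonzero values, and limma voom was run on them as an alternative. The floor of 3 reads covers counting error only.

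Genes with at least 1 RPKM in at least 6 libraries were tested (12382). The 4 group means of log2(RPKM + 0.5) were modelled with limma 3.58.1 (R 4.3.3) using a mean-variance trend. Calls were made at a Benjamini-Hochberg adjusted p below 0.05 in each of 5 contrasts. Fold changes on this scale understate changes of low genes. The procedure was tested on simulated data. Of 100 genes given the smaller change tried, it recovered 57 and 59 in the control and diabetic muscle comparisons. It recovered 49 in the adductor and 56 in the gastrocnemius diabetes comparison, and 17 for the difference of effects. With the larger change it recovered 93, 88, 88, 90 and 74 of 100 in the same order. Same-numbered samples of the 2 muscles deviated together from their group means in all 12 pairs (r across genes 0.25 to 0.74), so blocked values are printed where they change a call. The best partner of an adductor sample had the same number in 6 of the 12 cases and lay in the same library set in all 12, so shared number and shared set cannot be fully told apart. Control and diabetic samples of the same number had r over 0.1 in 9 of 12 pairs (from -0.66 to 0.82), and were not treated as paired.

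Values by group are given for every gene called in any contrast, the most abundant of each role and the 3 smallest p-values of each diabetes contrast. Full statistics are given for the 20 largest called control muscle differences at 2 RPKM or more, and for Sema6c, chosen after its values were seen, and the lists were read at up to 4 genes each, with Kdr and Mical2 added after their values were seen. The genes and lists were chosen with earlier results of these data known. Sequences are RefSeq's and were matched by symbol, and starts to measured transcripts through GENCODE M21.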

Additional observations from a re-analysis of the deposited data

Results flagged for a closer look

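In control adductor the library of sample 2 stood above the other 5 in 3 guidance genes. It held 0.778 RPKM of Ephb2, with the nearest library at 0.291, 1.15 RPKM of Ephb3, with the nearest at 0.389, and 1.95 RPKM of Sema6b, with the nearest at 1.17. In each case the gap to the nearest library, as a part of the group's whole range, was over Dixon's 95% critical value. 140 groups of 6 were checked, and chance flags about 1 in 20 of them. The same library held the highest adductor sums of the macrophage markers, at 214 RPKM, and of the fibroblast markers, at 892 RPKM. Without it Ephb2, Ephb3 and Sema6b stayed called higher in control gastrocnemius.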

How the results depend on the processing

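The counts of 29 and 27 called guidance genes in the control and diabetic muscle comparisons kept within 1.5 times under other pseudocounts (1 and 0.1 RPKM), a cut of 0.5 RPKM or none, median-of-ratios scaling, voom, set terms, either set alone, the replicate block and the longest transcript. The one alternative that moved them was a cut on adductor libraries alone, added after seeing the data, with 17 and 15. Leaving out single libraries gave 27 to 31 and 27 to 28. The count of genes whose control muscles did not overlap, 22, was 10 under median-of-ratios scaling, 9 with gastrocnemius higher and 1, Sema6c, with it lower. In the diabetes comparisons and their difference every setting gave 0. The count of 35 expressed genes was 40 at 0.5 RPKM, 26 at 2 RPKM and 15 at 1 RPKM in all 24 libraries. Plxdc1 in control mice turned to -0.017 under voom (adjusted p 0.96), and the adductor diabetes difference of Sema6c turned to 0.0090 in the second set alone. The causes were not tested. Of the called muscle differences, counted once per gene and mouse group, 15 lost their call under median-of-ratios scaling (10 genes, 5 of them in both mouse groups), 14 under voom (10 genes), 2 in the first set (2 genes) and 8 in the second (7 genes). With the replicate block, paired within a mouse group, 32 and 30 genes were called in the muscle comparisons and 0 in the others, and no called gene lost its call. The shares of all genes called with the block and without single libraries are not given here. These counts therefore describe the stability of the calls and no trait of the guidance genes. A planned relation of guidance genes to marker sums across samples was not computed, since the libraries fall into 2 sets with at most 5 of a muscle in the second. Genes at a few reads in adductor, such as Efna4 and Ephb3, are limited by depth.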
